A study of Arabidopsis thaliana with 8 samples.

Results

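The xyloglucan endotransglucosylase/hydrolase (XTH) family of Arabidopsis thaliana was examined in guard cell transcripts of heat-stressed plants. Its members were taken by name and locus, XTH1 to XTH33, without regard to their values, which gave 33 genes of 25398 loci with a probe on the array. All 33 genes had a probe, 42 probes in all, and 6 genes had more than 1. The study labelled stomatal RNA for Agilent 1-colour arrays, 8 arrays in 4 groups of 2. The groups were wild-type Col-0 and bam1, in which a T-DNA interrupts the β-amylase gene BAM1, each kept at 22 °C by day and 18 °C by night (control) or moved to 32 °C and 28 °C for the last 3 days (heat). All plants were 5 weeks old and were harvested at the end of the light period. Each array held RNA pooled over several plants (5 to 8 plants by the extraction text, 6 to 8 leaves by the design text), and the mutant is represented by 1 insertion line, so differences between genotypes rest on that line.

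Xyloglucan is the main hemicellulose of the primary wall in Arabidopsis and binds to cellulose microfibrils. XTH proteins cut a xyloglucan chain and join the new end either to another xyloglucan chain (transglucosylation) or to water (hydrolysis), and in this way loosen, strengthen or rebuild the wall as cells grow or change shape. Guard cells carry thick walls that stretch reversibly each time a stoma opens. The family is numbered by its phylogeny, with XTH1 to XTH11 and XTH12 to XTH26 forming the larger branches and XTH27 to XTH33 a smaller one, to which the known endohydrolase XTH31 belongs.

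Across the arrays, 61.3 to 70.8% of probes were well above background. Replicates correlated at r = 0.977 to 0.986 over all tested probes, and heat shock genes marked the heat arrays, with 7 of 7 higher in each genotype and summed normalized signals of 18206 and 21965 in Col-0 heat and of 84694 and 61548 in bam1 heat. BAM1 (AT3G23920), the gene interrupted in the mutant, had log2 signals of 11.19 to 12.22 on the 4 Col-0 arrays and of 6.81 to 7.68 on the 4 bam1 arrays, without overlap. All 7 guard cell markers (MYB60, KAT1, GC1, SLAC1, HT1, FAMA and TGG1) were well above background on every array, and so were all 5 mesophyll, 8 vascular and 6 epidermal markers. Fewer cells of a type and less RNA per cell cannot be told apart in such samples.

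Of the 33 genes, 16 were well above background on all 8 arrays, 6 on 3 to 7 arrays, 5 on 1 array and 6 on none. Testing asked for a probe well above background in some group on each of its 2 arrays, which left 22 genes. The 11 genes not tested were XTH2 (AT4G13090), XTH3 (AT3G25050), XTH12 (AT5G57530), XTH13 (AT5G57540), XTH14 (AT4G25820), XTH17 (AT1G65310), XTH19 (AT4G30290), XTH20 (AT5G48070), XTH21 (AT2G18800), XTH26 (AT4G28850) and XTH29 (AT4G18990). Several of these, among them XTH14, XTH17, XTH19, XTH20, XTH21 and XTH26, are known chiefly from roots. Their processed signals before normalization lay between 2.76 and 35.2. By branch, 9 of 11 genes of XTH1 to XTH11 were tested, 7 of 15 of XTH12 to XTH26, and 6 of 7 of XTH27 to XTH33.

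The first question was how the family responded to heat in each genotype. In Col-0, 1 tested member rose and 5 fell, which were XTH11 on the one side and XTH6, XTH8, XTH16, XTH18 and XTH22 on the other. In bam1, 3 rose (XTH10, XTH11 and XTH23) and 7 fell (XTH4, XTH6, XTH8, XTH15, XTH16, XTH18 and XTH22). In all, 6 genes were called in both genotypes, always in the same direction, and no member was called in Col-0 alone. The shares of all loci called in both genotypes or in Col-0 alone were not computed. These overlap counts are therefore not read as a trait of the family. A call needs an adjusted p below 0.05 in limma's moderated test over all probes tested and a change of more than 2-fold, that is, of more than 1 on the log2 scale.

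Over all 18459 loci tested, 11.7% were called higher and 10.6% lower with heat in Col-0, against 4.55% and 22.7% of the 22 XTH genes. In bam1 the background was 11.5% higher and 11.5% lower, against 13.6% and 31.8% of the XTH genes. The median log2 change of the tested XTH genes was -0.76 in Col-0 and -1.06 in bam1, where that of all loci was 0.02 and 0.03. These shares describe the genes that passed the filter on signal and were not tested as a set. By branch, the called genes were XTH4, XTH6, XTH8, XTH10 and XTH11 of XTH1 to XTH11, and XTH15, XTH16, XTH18, XTH22 and XTH23 of XTH12 to XTH26. None of the 6 tested genes of XTH27 to XTH33 was called in either genotype, with median log2 changes of -0.76 and -0.74.

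**Figure D1:**
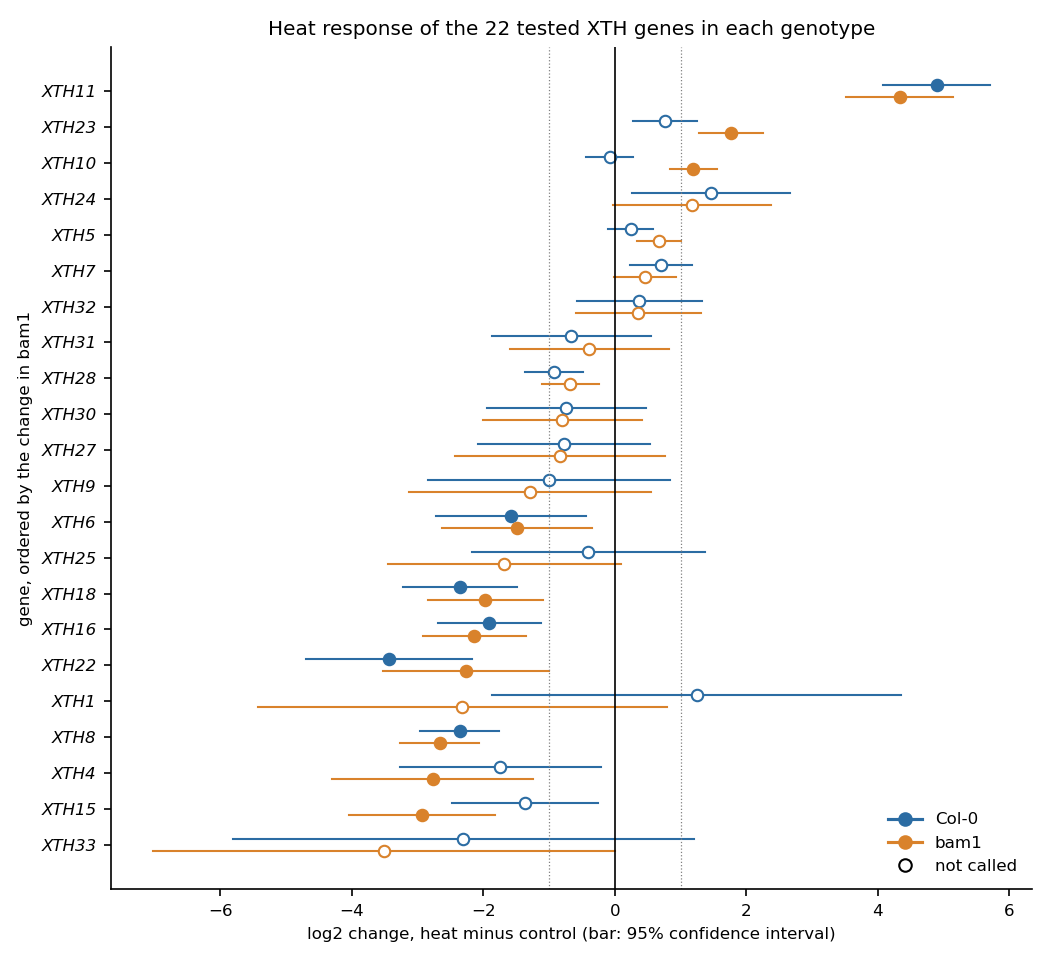
Log2 change with heat (x axis, heat minus control, points) and its 95% confidence interval (bars) for the 22 tested XTH genes (y axis) in Col-0 and bam1, with filled points for called genes and dotted lines at 2-fold. XTH11 lies far to the right in both genotypes at 4.89 and 4.34, and XTH8, XTH16, XTH18 and XTH22 lie to the left in both. The wide bars of XTH1, XTH9 and XTH25 cross 0 in both genotypes. That of XTH33 crosses 0 in Col-0 but not in bam1.

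XTH11 (AT3G48580) was the member with the largest called change. Its normalized log2 signal was 4.57 and 4.89 on Col-0 control replicates 1 and 2 and 9.62 on each Col-0 heat array. In bam1 it was 4.29 and 4.64 under control conditions and 8.29 and 9.32 under heat. The heat arrays stood far above the control arrays in both genotypes, and no control array was well above background. The rise was therefore given as a bound, at least 29.7-fold in Col-0 (adjusted p = 0.0004) and at least 20.2-fold in bam1 (adjusted p = 0.00046), and it was called in every alternative that kept the gene. These bounds hold on the scale of the main normalization. With the normexp correction, which adds an offset of 50 to each signal, the log2 changes were 2.70 and 2.18. XTH11 passed the filter on signal through the heat groups alone, where it was high, so its p-values and calls are no independent support for the rise. The same limit holds for XTH23, through the heat groups, and for XTH18 and XTH33, through control groups.

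XTH23 (AT4G25810), also known as XTR6, was low throughout. It measured 4.37 and 4.67 on the control arrays of Col-0 against 5.39 and 5.17 on the heat arrays, and 4.55 and 4.20 on the bam1 control arrays against 6.25 and 6.02 on the heat arrays. Heat and control arrays did not overlap in either genotype. The log2 change was 1.76 ± 0.20 (SE) in bam1 (adjusted p = 0.00148). In Col-0 it was 0.76 ± 0.20 (adjusted p = 0.0279), under the 2-fold limit, with neither control array well above background, so that the fold is at least 1.70.

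XTH10 (AT2G14620) measured 7.83 and 8.04 in Col-0 without heat and 7.81 and 7.90 with heat, which overlapped. In bam1 it measured 7.32 and 7.38 under control conditions and 8.51 and 8.58 under heat, so that the bam1 control arrays were the lowest of all 8 and the bam1 heat arrays the highest. The log2 change with heat was 1.19 ± 0.15 in bam1 (adjusted p = 0.00192) and -0.08 ± 0.15 in Col-0 (adjusted p = 0.71). With another background correction (normexp) the bam1 changes of XTH10 and XTH23 came to 0.84 and 0.65, below 2-fold, with adjusted p of 0.00218 and 0.00635 (over all alternatives 0.00105 to 0.0196 and 0.00138 to 0.0123).

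Among the members that fell, XTH8 (AT1G11545) gave tight heat values. It measured 9.35 and 10.11 on the control arrays of Col-0, 9.94 and 10.10 on the bam1 control arrays, and 7.35 to 7.37 on all 4 heat arrays. Every control array was above every heat array. The log2 change was -2.36 ± 0.25 in Col-0 (adjusted p = 0.00128) and -2.67 ± 0.25 in bam1 (adjusted p = 0.000791), or 5.14-fold and 6.35-fold lower.

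XTH16 (AT3G23730) measured 9.92 and 10.99 on the control arrays of Col-0, 10.74 and 10.69 on the bam1 control arrays and 8.53 to 8.59 on the 4 heat arrays. Control and heat arrays were apart by more than the spread within either. The log2 change was -1.91 ± 0.33 in Col-0 (adjusted p = 0.00603) and -2.14 ± 0.33 in bam1 (adjusted p = 0.00388). XTH8 and XTH16 were called lower in both genotypes in every alternative tried.

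XTH22 (AT5G57560) is TCH4, the touch-induced member of the family, which is known to respond to touch, temperature shifts and brassinosteroids. It measured 11.33 and 11.04 on the control arrays of Col-0 and 7.98 and 7.51 on the heat arrays, a log2 change of -3.44 ± 0.53 (adjusted p = 0.00412), or 10.8-fold lower. In bam1 it measured 12.08 and 11.25 under control conditions and 10.17 and 8.62 under heat, a change of -2.27 ± 0.53 (adjusted p = 0.017). Heat arrays were lower in both genotypes, with the bam1 heat arrays spread over more than 1 log2 unit. The bam1 call was lost without bam1 control replicate 1 (adjusted p = 0.084) or bam1 heat replicate 2 (0.0604), where the alternatives ranged from 0.00305 to 0.084.

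XTH18 (AT4G30280) measured 6.85 and 6.21 on the control arrays of Col-0 against 4.50 and 3.84 on the heat arrays, and 6.64 and 7.16 on the bam1 control arrays against 5.24 and 4.63 on the heat arrays. Control and heat arrays did not overlap, and heat replicate 2 of each genotype was not well above background. The log2 change was -2.36 ± 0.36 in Col-0 (adjusted p = 0.00423) and -1.97 ± 0.36 in bam1 (adjusted p = 0.0077). With the normexp correction the changes were -0.88 and -0.82, below 2-fold. Without bam1 control replicate 2 or bam1 heat replicate 2 the bam1 adjusted p was 0.0505 and 0.0538 (over all alternatives 0.00532 to 0.0538).

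XTH6 (AT5G65730) measured 10.66 and 12.06 on the control arrays of Col-0 and 9.62 and 9.94 on the heat arrays, and 11.61 and 11.74 on the bam1 control arrays and 9.79 and 10.59 on the heat arrays. Its heat arrays lay below its control arrays within each genotype. The changes, -1.58 ± 0.47 in Col-0 (adjusted p = 0.0417) and -1.49 ± 0.47 in bam1 (adjusted p = 0.0491), passed narrowly. They lost the call in 8 of 16 alternatives in Col-0 (adjusted p 0.0104 to 0.165) and in 7 of 16 in bam1 (0.0124 to 0.211).

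XTH4 (AT2G06850) and XTH15 (AT4G14130) were called lower in bam1. XTH4, which acts in growing and vascular tissue, measured 13.24 and 13.10 on the bam1 control arrays and 10.26 and 10.53 on the heat arrays, a log2 change of -2.77 ± 0.64 (adjusted p = 0.0166). In Col-0 it measured 10.93 and 13.16 under control conditions and 10.28 and 10.34 under heat, a change of -1.74 ± 0.64 (adjusted p = 0.0766). The heat arrays were close to each other in all 4 cases, while Col-0 control replicate 1 lay more than 2 log2 units below the other control arrays. Leaving out any of the 4 bam1 arrays raised the bam1 adjusted p to between 0.0693 and 0.0755 (over all alternatives 0.000799 to 0.0755). A second XTH4 probe gave -2.21 in bam1 (adjusted p = 0.0499) and -1.22 in Col-0 (adjusted p = 0.223).

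XTH15, also known as XTR7, measured 8.40 and 8.07 on the bam1 control arrays and 5.04 and 5.55 on the heat arrays, a log2 change of -2.94 ± 0.46 (adjusted p = 0.00437), or 7.65-fold lower, called in every alternative. In Col-0 it measured 6.38 and 7.85 under control conditions and 5.70 and 5.79 under heat, a change of -1.37 ± 0.46 (adjusted p = 0.0605). Here too, replicate 1 was the lowest of the control arrays. The Col-0 change of XTH15 was a call with the slide, which carries the replicate number, as a replicate block (adjusted p = 0.0408), and also with the 75th percentile scaling (0.0452), the deposited table (0.0453), the filter on all 8 arrays (0.0443), the trend and robust options (0.0476) and without Col-0 control replicate 1 (0.00814), and over all alternatives its adjusted p ran from 0.00814 to 0.188. A second XTH15 probe was well above background on 1 array and was not tested.

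**Figure D2:**
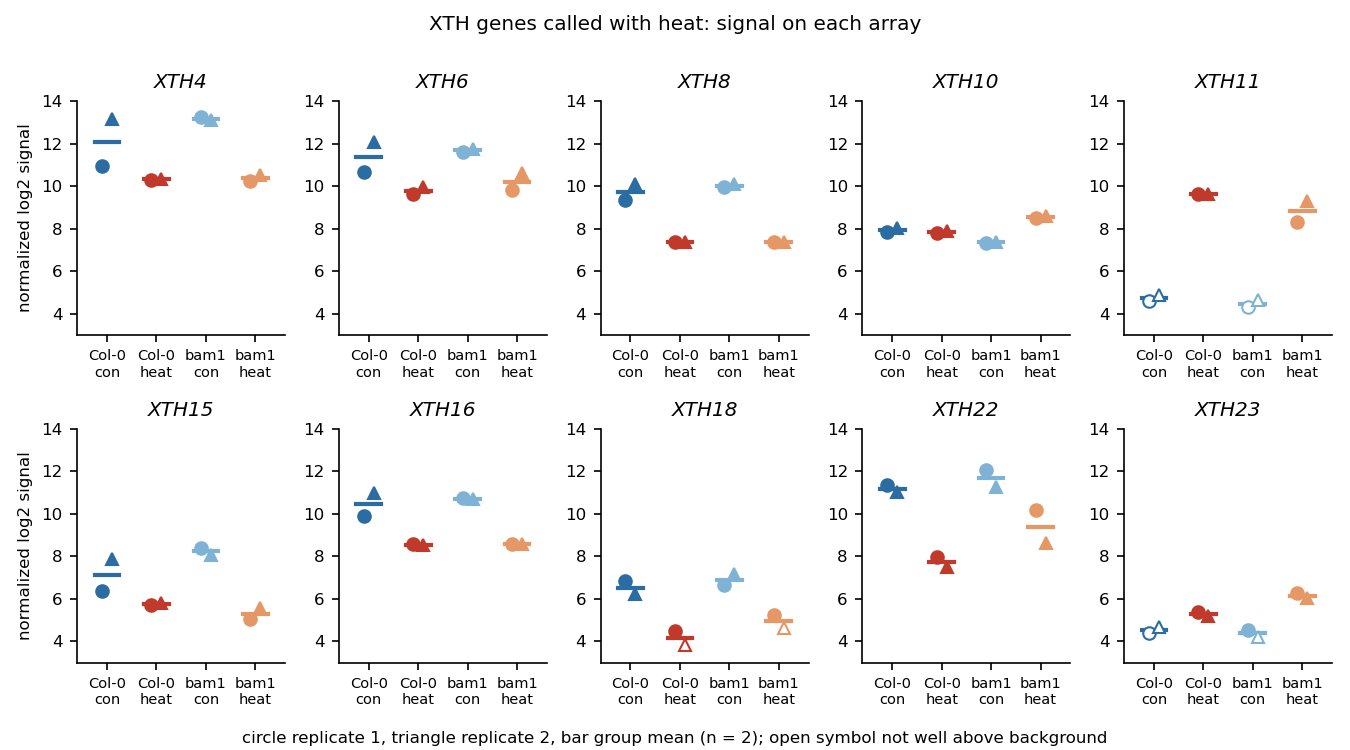
Normalized log2 signal (y axis) on each array of the 10 XTH genes called with heat, by group (x axis), with circles for replicate 1, triangles for replicate 2, bars for group means (n = 2) and open symbols for values not well above background. The 4 heat values of XTH8 and of XTH16 nearly coincide below their control values, and the circle of Col-0 control lies below its triangle for XTH4, XTH6, XTH8, XTH15 and XTH16.

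The 5 members whose probes had the highest mean signal were XTH9, XTH27, XTH7, XTH4 and XTH31, and apart from XTH4 none was called. XTH9 (AT4G03210), known from shoot apices and elongating organs, measured 12.09 and 14.66 on the control arrays of Col-0, 12.45 and 12.29 on the Col-0 heat arrays, 14.63 and 13.93 on the bam1 control arrays and 12.75 and 13.23 on the bam1 heat arrays. Its Col-0 control arrays lay on either side of the heat arrays. The log2 change was -1.01 ± 0.77 in Col-0 (adjusted p = 0.347) and -1.29 ± 0.77 in bam1 (adjusted p = 0.234), and a second probe gave -1.08 and -1.46, not called either.

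XTH7 (AT4G37800) shifted little, with 12.23 and 12.36 on the control arrays of Col-0, 12.83 and 13.17 on the Col-0 heat arrays, 12.42 and 12.40 on the bam1 control arrays and 12.68 and 13.07 on the bam1 heat arrays. Heat arrays were above control arrays throughout, by 0.70 ± 0.20 in Col-0 (adjusted p = 0.0341) and 0.46 ± 0.20 in bam1 (adjusted p = 0.115), less than 2-fold. XTH31 (AT3G44990), an endohydrolase, measured 12.64 and 10.99 on the control arrays of Col-0, 11.20 and 11.11 on the Col-0 heat arrays, 11.80 and 11.36 on the bam1 control arrays and 11.37 and 11.02 on the bam1 heat arrays. For XTH31, Col-0 control replicate 1 was the highest array and replicate 2 the lowest, and the changes were -0.66 ± 0.50 and -0.39 ± 0.50.

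XTH27 (AT2G01850), known from the differentiation of tracheary elements in leaf veins, measured 13.27 and 13.56 on the control arrays of Col-0, 13.07 and 12.21 on the Col-0 heat arrays and 14.44 and 13.05 on the bam1 control arrays. Its spot on bam1 heat replicate 1 carried an outlier mark and was dropped, which left 12.91 on replicate 2. The log2 change was -0.77 ± 0.52 in Col-0 (adjusted p = 0.299) and, from that lone heat array, -0.84 ± 0.64 in bam1 (adjusted p = 0.355). A second probe with all 8 spots gave -0.70 in Col-0 (adjusted p = 0.0759) and -0.84 in bam1 (adjusted p = 0.0438), under 2-fold.

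The remaining tested members were not called. XTH28 (AT1G14720), which is needed for stamen growth, had an adjusted p below 0.05 at less than 2-fold in both genotypes, at -0.92 ± 0.18 in Col-0 (0.01) and -0.68 ± 0.18 in bam1 (0.0285). In Col-0 XTH28 passed 2-fold, and so was called lower, with the 75th percentile scaling (adjusted p = 0.00625), with the deposited table (0.00618), without Col-0 heat replicate 1 (0.0268) and without Col-0 control replicate 2 (0.0301), and over all alternatives its adjusted p ran from 0.00311 to 0.0733. XTH5 (AT5G13870) had an adjusted p below 0.05 at less than 2-fold in bam1 alone, at 0.67 ± 0.14 (0.0124) against 0.24 ± 0.14 in Col-0 (0.234). XTH24 (AT4G30270), also known as MERI5, gave a log2 change of 1.46 ± 0.50 in Col-0 (adjusted p = 0.0638) and 1.18 ± 0.50 in bam1 (adjusted p = 0.112). All 5 of its probes gave a positive change in both genotypes, none of them called. With normexp (adjusted p = 0.0436) and with only the groups compared in the fit (0.0229), its bam1 change was a call. With single arrays left out, the bam1 change of XTH24 ran from 0.96 to 1.41. Its Col-0 change was a call with the replicate block (adjusted p = 0.0298), and also with normexp (0.0363), the filter on all 8 arrays (0.0468), the trend and robust options (0.0425) and without Col-0 control replicate 2 (0.00586), and over all alternatives its adjusted p ran from 0.00586 to 0.235.

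Log2 changes of XTH30 (AT1G32170) were -0.74 in Col-0 and -0.80 in bam1, those of XTH32 (AT2G36870) 0.37 and 0.36, and those of XTH25 (AT5G57550) -0.41 and -1.68. XTH33 (AT1G10550), a member predicted to carry a membrane anchor, measured 2.10 and 6.93 on the control arrays of Col-0, 7.14 and 5.39 on the bam1 control arrays and 2.15 to 3.27 on the 4 heat arrays. It was well above background on 3 of 4 control arrays, all but Col-0 control replicate 1, and on no heat array. The bam1 control mean was at least 6.08-fold above that of heat, on the main scale, with an adjusted p of 0.107, and with normexp the log2 change was -0.96.

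The control arrays of Col-0 differed from each other in this family. Between replicates 1 and 2 of Col-0 control, 11 of 22 XTH genes lay more than 2-fold apart, where 6.39% of all tested loci did. The same count was 0 of 22 in Col-0 heat (2.52% of loci), 3 of 22 in bam1 control (5.19%) and 4 of 21 in bam1 heat (3.79%). The median distance between the Col-0 control arrays was 0.88 log2 units over the XTH genes and 0.25 over all loci.

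Replicate 1 was the one that stood apart from the other 3 control arrays. It was more than 2-fold below their median for 9 XTH genes (XTH1 among them, which was low on both Col-0 control arrays) and above it for 1, XTH31, where 2.45% of loci were below and 2.93% above. Col-0 control replicate 2 and bam1 control replicate 2 each had 1 XTH gene on either side, and bam1 control replicate 1 had 4 above. The log2 difference of that array from the median of the others was -2.55 for XTH9, -2.56 for XTH25, -2.23 for XTH4, -1.69 for XTH15, -1.21 for XTH24, -1.08 for XTH6 and -4.83 for XTH33.

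**Figure D3:**
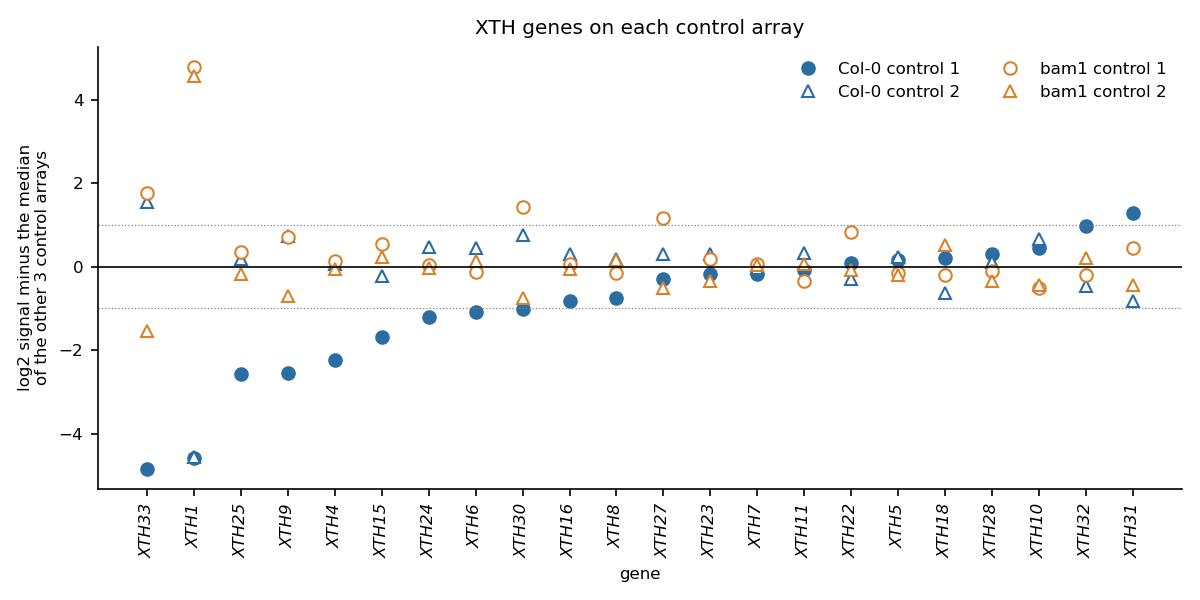
Log2 signal of each tested XTH gene (x axis) on each of the 4 control arrays, as the difference from the median of the other 3 (y axis), with dotted lines at 2-fold and filled circles for Col-0 control replicate 1. The filled circles lie below -2 for XTH33, XTH1, XTH25, XTH9 and XTH4. For XTH1 Col-0 control replicate 2 lies there as well, and for XTH33 the other control arrays spread from -1.55 to 1.75.

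The array as a whole was less apart than the family. Over all tested loci its correlation was 0.978 with Col-0 control replicate 2, 0.981 with bam1 control replicate 1 and 0.967 with bam1 control replicate 2, and 64.9% of its probes were well above background. On this array the summed normalized signal of the 7 guard cell markers was 107500 and that of the 6 epidermal markers 79337. Both were the highest of the 4 control arrays. That of the 8 vascular markers was 68124, the lowest. The brightest genes weigh most in such sums. By median log2 signal the guard cell markers were again highest here (12.45). The epidermal median was 12.19, with 11.81 to 12.35 on the other control arrays, and the vascular median was 11.56, with 11.43 to 12.05. The part of these in the XTH values was not tested.

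Because each group had 2 arrays, this array set several calls in Col-0. Without it, 10 XTH genes were lower with heat in Col-0 (XTH4, XTH6, XTH8, XTH9, XTH15, XTH16, XTH18, XTH22, XTH25 and XTH33) and XTH11 was the only one higher, as with it. The Col-0 log2 change was then -2.84 for XTH4 (adjusted p = 0.00242), -2.27 for XTH9 (0.0121), -2.11 for XTH15 (0.00814) and -1.69 for XTH25 (0.0112). XTH33 was called too (0.0136), but against heat arrays that were not well above background, so no size is given. Without replicate 2 instead, XTH9 and XTH25 had changes of 0.28 and 0.88, in the other direction, and XTH4 one of -0.62. XTH8, XTH11, XTH16, XTH18 and XTH22 were called in Col-0 with either control array alone. Leaving out either Col-0 control array also raised the number lower in bam1 to 10, since its spread enters the common error of the fit.

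**Figure D4:**
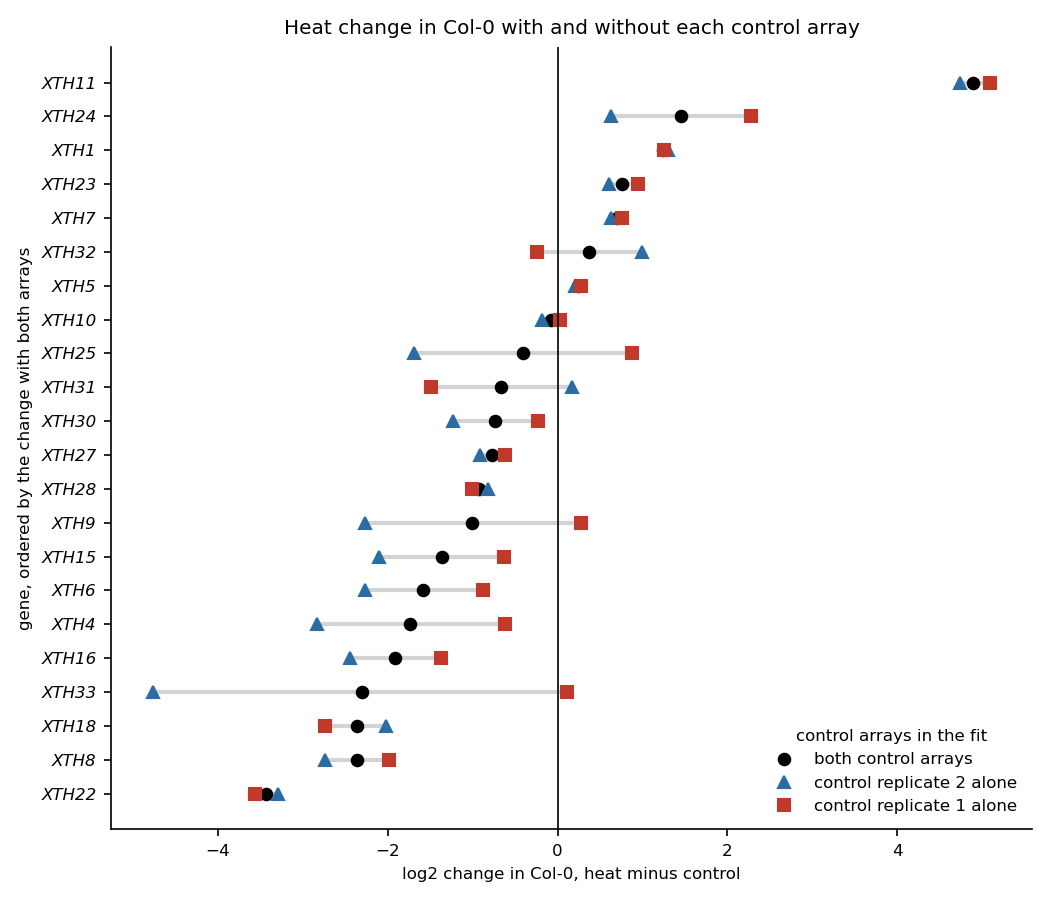
Log2 change with heat in Col-0 (x axis) of the 22 tested XTH genes (y axis) with both control arrays (circles), with replicate 2 alone (triangles) and with replicate 1 alone (squares). The symbols of XTH11, XTH18 and XTH22 keep to 1 side of 0, while those of XTH25 run from -1.69 to 0.88. The wide span of XTH33 rests on heat values not well above background.

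The next question was whether the family differed between the genotypes. No XTH gene was called between bam1 and Col-0 under control conditions, where 0.00542% of all loci were called, nor under heat, where 0% were, nor in the difference of the heat responses, where 0.00542% were. At an unadjusted p below 0.05, limma gave 3, 4 and 3 of the 22 genes in these comparisons, where it gave 4%, 3.27% and 2.75% of all probes tested. BAM1 itself did not pass here, at -4.66 ± 0.35 under control conditions (adjusted p = 0.0882) and -4.72 ± 0.35 under heat (adjusted p = 0.134), so these comparisons can miss large differences.

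The guard cell markers had lower values in bam1 control. Their summed normalized signal was 107500 and 102250 on the arrays of Col-0 control and 63252 and 85460 on those of bam1 control, and 7 of 7 were lower in bam1 (median -0.66), 5 of them at an unadjusted p below 0.05 and none called. Their part in the XTH values was not tested.

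Under control conditions the genes at an unadjusted p below 0.05 were XTH1, XTH10 and XTH15. XTH1 (AT4G13080) measured 2.24 and 2.25 on the control arrays of Col-0, 3.81 and 3.17 on the Col-0 heat arrays, 7.03 and 6.82 on the bam1 control arrays and 6.90 and 2.31 on the bam1 heat arrays. A signal well above background was present on 3 arrays, those of bam1 control and bam1 heat replicate 1, and the bam1 heat arrays lay more than 4 log2 units apart. The bam1 control arrays were at least 8.13-fold above the Col-0 control arrays, with an adjusted p of 1. XTH1 entered the test through bam1 control alone, the group where it was high, so its place among these genes is no support for a difference. XTH10 was lower in bam1 by -0.58 ± 0.15 (unadjusted p = 0.00651), and XTH15 differed by 1.12 ± 0.46 (unadjusted p = 0.0483), in the group that holds Col-0 control replicate 1.

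Under heat these genes were XTH10, XTH11, XTH22 and XTH23. XTH10 measured 0.69 ± 0.15 more in bam1 (unadjusted p = 0.00275), XTH23 0.86 ± 0.20 (unadjusted p = 0.00461) and XTH22 1.65 ± 0.53 (unadjusted p = 0.0182), while XTH11 stood at -0.82 ± 0.34 (unadjusted p = 0.049). None of these passed after adjustment. The heat shock genes also had higher values in bam1 here, with 7 of 7 above Col-0 under heat at an unadjusted p below 0.05 (median 2.29) and none called, and their part in these XTH values was not tested. The heat response in bam1 minus that in Col-0 was 1.27 ± 0.21 for XTH10 (unadjusted p = 0.000657), 1.00 ± 0.29 for XTH23 (0.0113) and -1.57 ± 0.65 for XTH15 (0.0498), each with an adjusted p of 1. The 95% intervals of this difference were 0.77 to 1.77 for XTH10, and for genes called in both genotypes they ran from -1.16 to 0.55 for XTH8, from -1.33 to 0.88 for XTH16 and from -1.71 to 0.59 for XTH11, so similar responses were not shown either.

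Members that lie side by side on a chromosome did not share 1 pattern. XTH24, XTH18 and XTH19 are consecutive protein-coding loci on chromosome 4 in RefSeq's gene table, and of these XTH18 fell in both genotypes, XTH24 had a positive change that was not called and XTH19 was not tested. On chromosome 5, XTH13, XTH25 and XTH22 are consecutive. There XTH22 fell, XTH25 was not called and XTH13 was well above background on no array. XTH23 rose in bam1 while its neighbour XTH14 was well above background on no array, and XTH1 and XTH2 likewise stood next to each other with XTH2 on no array. Probe sequences were not used here, so signal shared between near-identical members cannot be told apart.

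Other genes of xyloglucan metabolism were followed in the same fit. Of 15 tested of 16 synthesis genes, 1 was higher and 3 lower with heat in Col-0, and 0 were higher and 3 lower in bam1, with medians of -0.61 and -0.55. CSLC4 (AT3G28180), the synthase of the glucan backbone, had log2 signals of 12.47 and 12.75 on the control arrays of Col-0 and 9.91 and 9.53 on the heat arrays, and 13.18 and 12.45 on the bam1 control arrays and 10.05 and 9.98 on the heat arrays. It fell by 2.89 in Col-0 (adjusted p = 0.000908) and by 2.80 in bam1 (adjusted p = 0.000895), without overlap between heat and control arrays.

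The xylosyltransferases, which add xylose to that backbone, were split. XXT1 (AT3G62720) fell by 1.54 in Col-0 (adjusted p = 0.00385) and by 1.18 in bam1 (adjusted p = 0.00965), and XXT3 (AT5G07720) by 2.15 (adjusted p = 0.00384) and 2.29 (adjusted p = 0.00298). XXT4 (AT1G18690) rose by 1.03 in Col-0 (adjusted p = 0.00597), at the edge of the 2-fold limit, and its change in bam1 was 0.92 (adjusted p = 0.00839). XXT2 (AT4G02500) changed by -0.25 and -0.08 and XXT5 (AT1G74380) by -0.72 and -0.73, and neither was called. The decorating enzymes MUR3, XLT2, FUT1, AXY4 and AXY4L were not called either.

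Of 3 enzymes that trim xyloglucan in the wall, the β-galactosidase BGAL10 (AT5G63810) fell by 1.52 in Col-0 (adjusted p = 0.00164) and by 1.58 in bam1 (adjusted p = 0.00133). The α-xylosidase XYL1 (AT1G68560) and the α-fucosidase AXY8 (AT4G34260) were not called, with changes of -0.07 to 0.26. The other touch genes, which encode calmodulin and calmodulin-like proteins, were set beside TCH4. TCH1 (AT2G41110) fell by 1.29 in Col-0 and 1.46 in bam1 (adjusted p = 0.00781 and 0.0049), and TCH3 (AT2G41100) fell by 2.95 and 3.33 (adjusted p = 0.00249 and 0.00157), while TCH2 (AT5G37770) had changes of -0.83 and 0.24 and was not called.

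**Figure D5:**
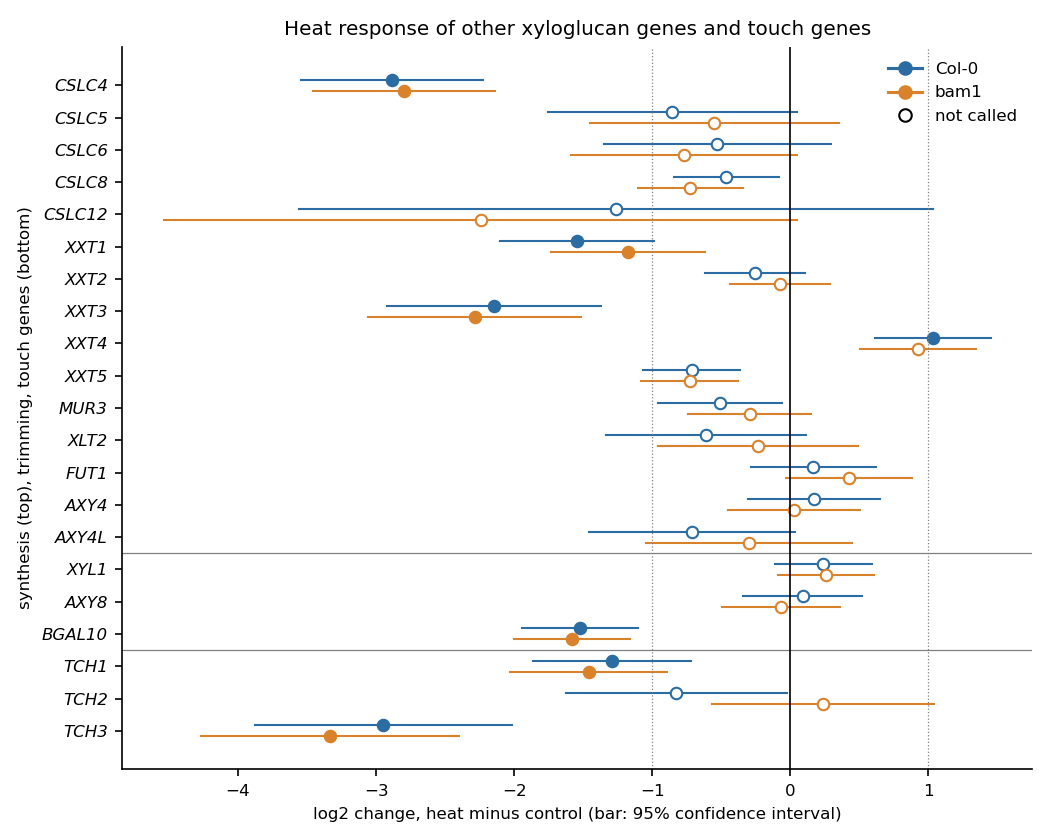
Log2 change with heat (x axis) and 95% confidence interval (bars) of the tested xyloglucan synthesis genes (top), trimming enzymes and touch genes (bottom) in Col-0 and bam1, with filled points for called genes. CSLC4, XXT1, XXT3, BGAL10, TCH1 and TCH3 lie to the left of the 2-fold line in both genotypes, and XXT4 lies at 1.03 and 0.92.

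Markers of guard cells moved with heat as well. Their summed normalized signal was 63252 to 107500 on the 4 control arrays and 41213 to 54456 on the 4 heat arrays, with 4 of 7 markers lower in Col-0 (KAT1, GC1, SLAC1 and HT1) and 1 of 7 lower in bam1 (GC1). GC1 had the largest change of the list, -5.04 in Col-0 and -5.10 in bam1. Summed signals of mesophyll markers were 832650 to 861040 under control conditions and 732370 to 824590 under heat, with 0 of 5 called. Epidermal markers came to 58170 to 79337 and 59086 to 119770, with 1 of 6 lower in Col-0. Of these 6, 1 had a positive change in Col-0 (median -0.322) and 2 in bam1 (median -0.285), so the sums do not describe most of them. The brightest, LTP1, measured 16.61 on Col-0 heat replicate 1 and 16.53 on bam1 heat replicate 1. Vascular markers came to 68124 to 93068 and 80096 to 87367. Of these 8, 2 were higher and 1 lower in Col-0, and 1 was higher and 1 lower in bam1. No marker was at 0 on any array, and the part of these shifts in the XTH changes was not tested.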

How the data were processed

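The authors hybridised Cy3-labelled RNA to Agilent arrays and deposited the scanner output, in which each spot has a processed intensity after background subtraction (Feature Extraction 11.5.1.1, per the file headers), and a table of log2 values. Centred per probe, 99.71% of the deposited log2 values matched log2 intensities scaled to each array's 75th percentile to within 0.05. Here, control and outlier spots were dropped, replicate spots of a probe were averaged, and log2 processed intensities were quantile-normalized over the 8 arrays (limma 3.58.1, R 4.3.3). Probes had to be well above background on each of the 2 arrays of some group (29618 of 43603). A model of 4 group means was fitted with moderated variances and 4 residual degrees of freedom, with Benjamini-Hochberg adjustment over all of these probes. Genes were read by the probe with the highest mean signal. A bound (at least N-fold) took the dim group at the lowest signal well above background on each array, or at its own value where higher. Summed signals of a list are on the linear scale.

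Values on each array were given for members called in any of the 5 comparisons and for the 5 with the highest mean signal, and the others by range and counts, apart from XTH1, XTH25 and XTH33, which were chosen after their values were seen. The members and gene lists were chosen with earlier results of these data known. Replicate numbers pair the arrays through the slide, since all replicate 1 arrays shared 1 slide and all replicate 2 arrays another, and deviations from group means correlated between groups at r = 0.282 to 0.628. With 2 arrays per group, their number limits the precision. In a simulation of the Col-0 heat comparison with 29458 probes, 64% of 200 changed probes were recovered (71% of those changed at least 4-fold). In it, 9 unchanged probes were called. The real comparison called 6389 of 29618 probes, and the adjustment depends on the share of changed probes. These rates therefore do not give the power of the real comparison. Alternatives covered normalization, background correction, the deposited table, filters, the replicate block, the samples in the fit, the variance model, the fold limit, other probes and leaving out each array. Gene neighbours came from RefSeq's table for TAIR10.1, by order alone, and no sequence was used.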

Additional observations from a re-analysis of the deposited data

Results flagged for a closer look

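For XTH10 and XTH1 the sign of heat minus control was opposite in the 2 genotypes on both slides. For XTH10 the heat minus control difference was -0.02 and -0.14 in Col-0 and 1.18 and 1.20 in bam1 on slides 1 and 2, and the heat response differed by 1.27 log2 units (unadjusted p = 0.000657, adjusted p = 1). The Col-0 change of XTH10 was within its error, with overlapping arrays, and its sign turned in 2 alternatives, so its sign in Col-0 is not settled. For XTH1 it was 1.57 and 0.92 in Col-0 and -0.13 and -4.51 in bam1, a difference of -3.56 (adjusted p = 1). No Col-0 array and not bam1 heat replicate 2 was well above background for XTH1, so these values have no reliable size or sign.

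Among the members left out of the test, 3 were well above background on a heat array and on no control array. XTH17 had a processed signal of 28.5 on bam1 heat replicate 1, XTH21 one of 19.0 on the same array and XTH19 one of 19.9 on Col-0 heat replicate 1. The reverse held for XTH12, at 26.7 on Col-0 control replicate 2, and for XTH26, at 33.9 on Col-0 control replicate 1, which were well above background on no heat array. Each rests on 1 array, and the other array of the group was not well above background.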

How the results depend on the processing

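For the heat comparisons, XTH8, XTH11 and XTH16 were called in both genotypes in every alternative that kept them. Under the filter on signal XTH11 entered through the heat groups alone, so its calls are no independent support. The number of members higher with heat in Col-0 was 1 and became 2 with the normexp correction, the replicate block and the trend and robust options (XTH11 and XTH24 each time), 2 when only the groups compared were fitted (XTH11 and XTH1) and 3 without a fold limit, and it ranged from 1 to 2 when single arrays were left out. The replicate block added XTH15 to the members lower in Col-0, 6 against 5, and apart from XTH15 and XTH24 changed no call of a member. The 75th percentile scaling and the deposited table gave 7 lower in Col-0, with XTH15 and XTH28 added. The number lower in Col-0 ranged from 4 to 10 without single arrays, with 10 reached without Col-0 control replicate 1. In bam1, 3 were higher, and 1 when a probe had to be well above background on all 8 arrays, since XTH11 and XTH23 were not. XTH24 was called higher in bam1 with normexp and when only the groups compared were fitted. That last fit also called XTH9, XTH25 and XTH33 lower in bam1 (adjusted p = 0.0444, 0.00885 and 0.023), which gave 10 lower. The 7 lower in bam1 ranged from 3 (without bam1 heat replicate 2: XTH8, XTH15 and XTH16) to 10 (without either Col-0 control array), with 4 without bam1 control replicate 1 or 2. No member was called between genotypes with all arrays. Without single arrays the number higher in bam1 ranged from 0 to 2 under control conditions (XTH25 and XTH4 without Col-0 control replicate 2, XTH1 without either bam1 heat array) and from 0 to 1 under heat (XTH1), the number lower from 0 to 1 under control conditions (XTH26), and the heat responses differed for 0 to 1 member in each direction (XTH26 and XTH1). In these fits the lone array is assumed to vary like the other groups. XTH26 was tested there only because the lone array, Col-0 control replicate 1, carried it through the filter, so its calls are no support for a difference. XTH1 again entered through bam1 groups alone, where it was high. Direction turned for uncalled Col-0 changes: with single arrays left out, XTH9 ranged from -2.27 to 0.28, XTH10 from -0.19 to 0.026, XTH25 from -1.69 to 0.88, XTH31 from -1.49 to 0.16, XTH32 from -0.24 to 0.99 and XTH33 from -4.76 to 0.11. The ends of each range came without Col-0 control replicate 1 and without replicate 2. With normexp, XTH10 was 0.024. The cause was not tested. Chosen after seeing the data, the same alternatives were run on the other gene lists, where XXT4 lost its Col-0 call with normexp, without Col-0 control replicate 1 or without Col-0 heat replicate 2, and TCH1 without Col-0 heat replicate 1. Signals near background limit XTH1, XTH18, XTH23 and XTH33.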
